A study of Mus musculus with 46 samples.

Results

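The genes described here encode the enzymes and partner proteins that copy, set and remove 2 repressive marks, methylation of cytosine in DNA and trimethylation of histone H3 at lysine 27. They are Dnmt1, Uhrf1, Hells, Dnmt3a, Dnmt3b, Tet2, Tet3, Ezh1, Ezh2 and Suz12. The 10 genes were taken by symbol from a table of 20999 genes, and all 10 passed the filter on low counts that left 12230 genes for testing. Neither mark was itself analysed here.

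All samples were microglia, the resident macrophages of the brain, sorted from male C57BL/6 mice. RNA was sequenced from 5 groups of 2 libraries each. The adult basal group came from untreated wild-type mice of 90 days; its titles name no Ki67 sort, although a second label calls these cells Ki67-negative. The other 4 groups came from mice carrying a Ki67-rfp reporter, whose fluorescence follows the proliferation protein Ki67, and were sorted into reporter-negative and reporter-positive cells. A pair of these groups came from untreated pups of 8 days (PND8). The other pair came from mice of 75 days given PLX5622, an inhibitor of the CSF1 receptor that depletes microglia, in the diet for 17 days from day 55, then allowed 3 days of recovery (repopulation). The labels call the 2 libraries of a group independent biological replicates. Isolation buffers held sodium butyrate, a histone deacetylase inhibitor, and flavopiridol, which blocks transcription elongation, in every group. Chromatin was profiled from wild-type mice whose cells were fixed and stained for Ki67. H3K27ac, an acetyl mark of active promoters and enhancers, was measured in 2 libraries each of adult basal (60 and 65 days), PND8 Ki67-negative and Ki67-positive, repopulation Ki67-positive (90 days, PLX5622 from day 70), and Ki67-negative and Ki67-positive cells of mice of 90 days fed the demyelinating toxin cuprizone for 4 weeks. H3K4me3, a mark of promoters, had 2 adult libraries (75 days). Rpb2, a subunit of RNA polymerase II, had 2 adult libraries (60 and 65 days, although the title of the second gives 60) and 1 of PND8 Ki67-positive cells. Open chromatin (ATAC) had 1 library each of adult basal (80 days), PND8 Ki67-positive and repopulation Ki67-positive cells, all labelled wild type although the titles of the last 2 name the reporter.

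When DNA is replicated, the new strand carries no methyl groups. UHRF1 recognises such hemimethylated CpG sites and brings in DNMT1, which copies the pattern, and the chromatin remodeller HELLS (LSH) helps methylation reach packed DNA. DNMT3A and DNMT3B methylate new sites, and the TET enzymes oxidise methylcytosine as a step toward its removal. Polycomb repressive complex 2 places the lysine 27 mark through EZH1 or EZH2, its alternative catalytic subunits, with SUZ12 as the core scaffold. EZH2 is typical of dividing cells and EZH1 of resting ones, and in microglia polycomb activity is known for keeping genes of other states silent. E2F factors switch on genes of DNA replication as cells enter the cycle.

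Words that E2F factors can bind were searched for at the starts of the 10 genes. Matches are printed for Dnmt1, Uhrf1, Hells, Ezh2 and Suz12. These 5 genes were called higher than in adult cells in each of the 4 other RNA groups. The words searched first matched 4 of them, and Uhrf1 matched only a looser set chosen afterwards. The overlap of matches and calls is therefore not a test. RefSeq windows from 250 bases before to 50 after each annotated start (GRCm38.p6) were searched on both strands for TTTCCCGC and TTTGGCGC, which were found in Dnmt1, Hells, Ezh2 and Suz12 and in 1.56% of 32851 windows. Counted by gene, as the members are, the share was 3.56% of the tested genes that have a window. A second set was chosen after those matches were seen. It holds TTCCCGC and also TTGGCGC, which are the ends of the longer words, together with the words TTCGCGC and, finally, TTGCCGC. It adds Uhrf1 and matched 9.57% of windows and 19.5% of tested genes. The lines run 5′ to 3′ on the strand of the gene, with the matched word in capitals.
Dnmt1 (chr9:20952574-20952600, minus strand): cggggcagcgTTTGGCGCgggctgtgc
Hells (chr19:38930918-38930945, plus strand): accaccgggtTTTCCCGCgaaagagaag
Ezh2 (chr6:47595010-47595037, minus strand): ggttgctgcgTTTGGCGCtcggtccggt
Suz12 (chr11:79992877-79992904, plus strand): gacccctcatTTTCCCGCgaattcagtt
Uhrf1 (chr17:56303279-56303305, plus strand): gctttctcgcTTCCCGCcacagcgcca
Uhrf1, second annotated start (chr17:56304119-56304145, plus strand): cgagtcgggtTTCGCGCgcccaggcgt

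The Hells, Suz12 and first Uhrf1 words lie upstream of the start, and the Ezh2 and Dnmt1 words lie just downstream of one. The Dnmt1 word belongs to an annotated start at position 20952623 of chromosome 9, downstream of the start used in the count table at 20952979. The window of the count-table start held 0 matches to either set. None of these words was found in the windows of Dnmt3a, Dnmt3b, Tet2 or Ezh1, or in the Tet3 window that was available. A match describes letters in a window and is not a measured binding site.

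Uhrf1 showed the widest range of the 10 genes, being low in adult microglia and well expressed in all 4 other groups. Its levels as CPM (counts scaled to library size with TMM factors, comparable between libraries for 1 gene) were 3.35 and 2.2 in the adult libraries, on 29 and 18 counts. They were 165 and 172 in PND8 Ki67-negative cells, 96.4 and 104 in PND8 Ki67-positive cells, 117 and 184 in repopulation Ki67-negative cells, and 99.4 and 134 in repopulation Ki67-positive cells. The adult values lay far below all 8 others, which overlapped between PND8 and repopulation. Against adult cells, Uhrf1 was 60-fold higher in PND8 Ki67-negative cells (log2 5.91, SE 0.272, adjusted p = 6.21e-09; edgeR quasi-likelihood test with Benjamini-Hochberg adjustment over all tested genes, as for every adjusted p given here). The fold was 35.7 in PND8 Ki67-positive, 53.4 in repopulation Ki67-negative and 41.5 in repopulation Ki67-positive cells. In a bulk library, more cells that carry a transcript and more of it per cell cannot be told apart.

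Dnmt1, by contrast, was already well expressed in adult cells, at 88.2 and 85.7 CPM. The PND8 Ki67-negative libraries held 295 and 293, the PND8 Ki67-positive 192 and 198, the repopulation Ki67-negative 186 and 236, and the repopulation Ki67-positive 151 and 192. It was 3.38-fold above adult in PND8 Ki67-negative cells (log2 1.76, SE 0.125, adjusted p = 1.65e-07) and 2.24-fold in PND8 Ki67-positive cells (log2 1.17, SE 0.125, adjusted p = 5.57e-06). In repopulation it was 2.42-fold higher in Ki67-negative (adjusted p = 3.78e-06) and 1.96-fold higher in Ki67-positive cells (adjusted p = 3.49e-05). Both adult libraries lay below all others.

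Hells stood at 4.39 and 3.91 CPM in adult cells, on 38 and 32 counts. Its highest values were 65.2 and 58.2 in PND8 Ki67-negative cells, against 25.8 and 21.4 in PND8 Ki67-positive, 31.3 and 54.2 in repopulation Ki67-negative and 14.6 and 24.5 in repopulation Ki67-positive cells. The fold over adult was 14.8 and 10.2 in the Ki67-negative cells of PND8 and repopulation (adjusted p = 3.85e-07 and 2.2e-06), and 5.66 and 4.63 in the Ki67-positive cells (adjusted p = 2.75e-05 and 0.000114). For this gene each Ki67-negative pair lay above the Ki67-positive pair of the same age or treatment.

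**Figure D1:**
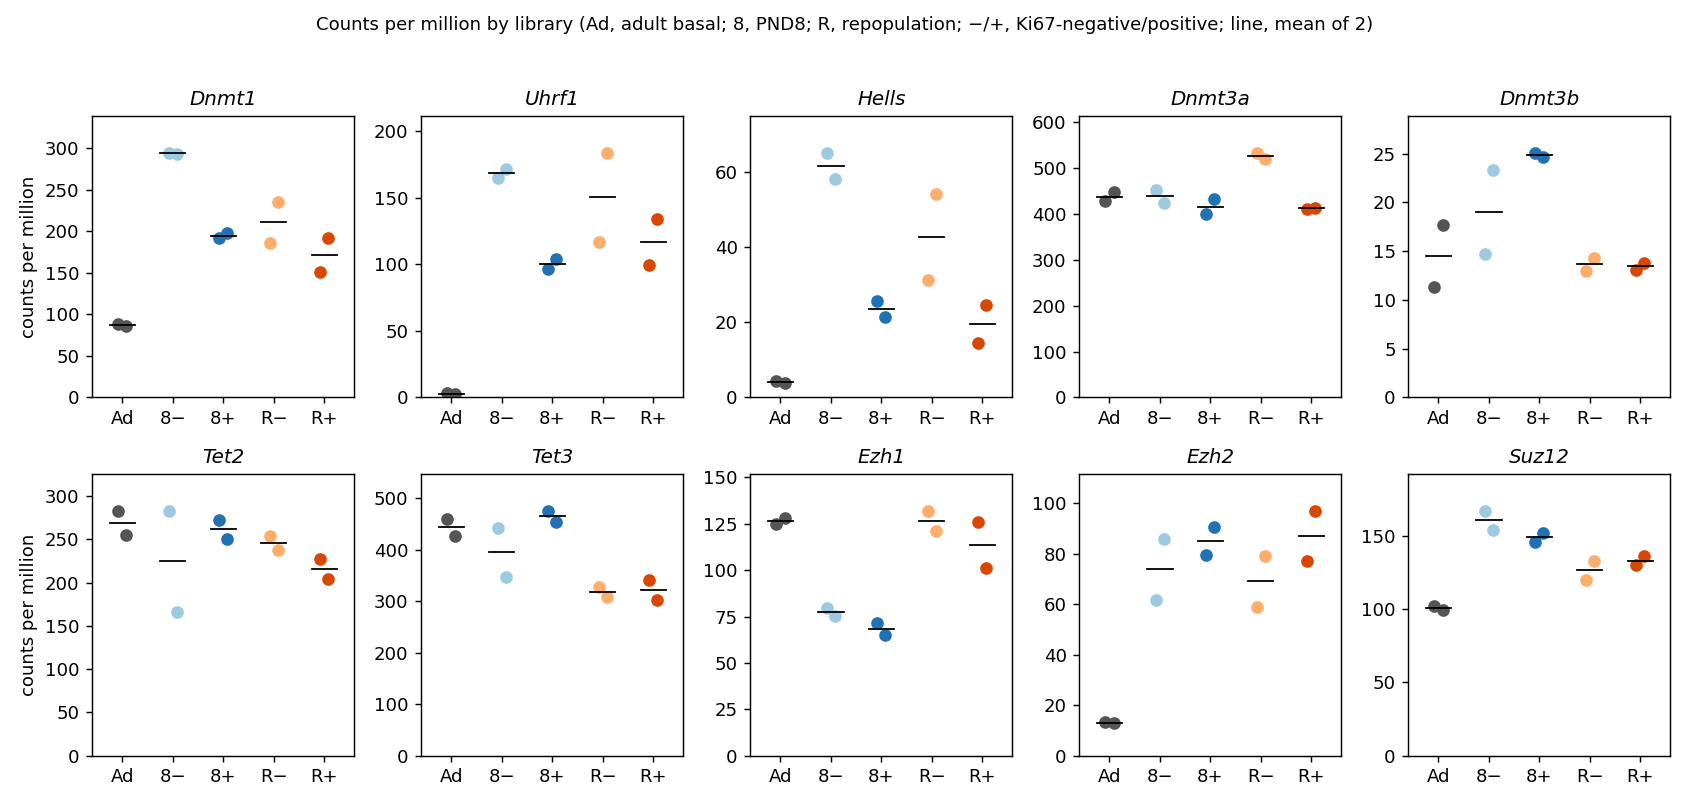
Each panel plots 1 gene, with the 5 RNA groups on the horizontal axis and TMM-normalised CPM on a linear vertical axis. Points are single libraries and short bars are group means. Uhrf1, Hells and Ezh2 have both adult points far below the rest, Ezh1 has its 4 lowest points at PND8, and Dnmt3a stays between 399 and 534.

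Per transcript length, the maintenance genes were compared with the de novo enzyme Dnmt3a and with one another. On the TPM scale (which corrects for transcript length, so that genes can be compared), Dnmt1 averaged 24.6 ± 0.573 (SD, n = 2) in adult and 82.1 ± 0.707 (SD, n = 2) in PND8 Ki67-negative cells. Uhrf1 averaged 1.13 ± 0.297 and 70.6 ± 3.17 TPM in those groups (SD, n = 2 each). The ratio of Uhrf1 to Dnmt1 TPM was 0.0537 and 0.0381 in the adult libraries and between 0.756 and 1.17 in the other 8. Dnmt1 TPM was 0.363 and 0.339 of Dnmt3a TPM in adult cells, 1.17 and 1.21 in PND8 Ki67-negative cells, and 0.624 to 0.866 in the 6 remaining libraries. Uhrf2, the paralog of Uhrf1, held between 102 and 134 CPM in all 10 libraries, so that the Uhrf1 to Uhrf2 ratio in TPM ran from 0.0209 in an adult library to 1.68 in a PND8 Ki67-negative one.

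Among the de novo methyltransferases, Dnmt3a was the steadiest of the 10 genes. Its CPM were 428 and 448 in adult, 453 and 424 in PND8 Ki67-negative, 399 and 432 in PND8 Ki67-positive, 534 and 521 in repopulation Ki67-negative, and 411 and 414 in repopulation Ki67-positive libraries. Only the repopulation Ki67-negative pair stood clear of the rest, 0.27 above adult on the log2 scale (SE 0.0796, adjusted p = 0.0168). That call was lost under 5 of 18 alternatives, among them leaving out adult replicate 1 (adjusted p = 0.134), adult replicate 2 (0.0621) or repopulation Ki67-negative replicate 1 (0.0695). Dnmt3b was low throughout, from 11.3 to 25.1 CPM, and its TPM stayed at 0.0591 to 0.15 of that of Dnmt3a. Its highest values were the 25.1 and 24.6 CPM of PND8 Ki67-positive cells, against 11.3 and 17.7 in adult cells (log2 0.78, SE 0.237, adjusted p = 0.0149). Without adult replicate 1 that difference was 0.49 with an adjusted p of 0.166, and without either PND8 Ki67-positive library the adjusted p was 0.0595 or 0.0517.

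Of the TET enzymes, Tet3 was lower in repopulation than in adult cells and Tet2 passed no test. Tet2 held 283 and 255 CPM in adult cells, 283 and 166 in PND8 Ki67-negative, 273 and 251 in PND8 Ki67-positive, 254 and 238 in repopulation Ki67-negative, and 227 and 204 in repopulation Ki67-positive cells. The lowest value is that of PND8 Ki67-negative replicate 2, which lies far from replicate 1, and none of the 10 comparisons called the gene. Tet3 held 460 and 427 CPM in adult and 303 to 341 in all 4 repopulation libraries, with no overlap between them. It fell by 0.46 on the log2 scale in repopulation Ki67-positive (SE 0.109, adjusted p = 0.00384; -0.38 and 0.0528 without replicate 2) and by 0.48 in repopulation Ki67-negative cells (SE 0.109, adjusted p = 0.00377). The PND8 values of Tet3, 347 to 475, included the adult ones, and neither PND8 difference from adult passed (log2 0.07 and -0.17, adjusted p = 0.639 and 0.219). Tet1 is the third member of this family. Its CPM lay between 26.5 and 44.6 outside PND8 and between 30.5 and 48.8 at PND8, and it passed in no comparison.

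The catalytic subunits of polycomb repressive complex 2 showed opposite levels in adult and PND8 cells. Ezh2 was low in adult libraries, at 13.4 and 12.8 CPM. It reached 61.8 and 85.8 in PND8 Ki67-negative, 79.6 and 90.7 in PND8 Ki67-positive, 59 and 79.3 in repopulation Ki67-negative, and 77.3 and 97 in repopulation Ki67-positive cells. These are folds over adult of 5.64 and 6.48 at PND8 and 5.24 and 6.62 in repopulation, in the order Ki67-negative then Ki67-positive. Their adjusted p ran from 1.68e-07 to 8.49e-07. All 8 of these values lay above both adult ones. The PND8 Ki67-negative range overlapped each of the other 3, while the repopulation Ki67-negative values lay just below the PND8 Ki67-positive ones.

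Ezh1 held 125 and 128 CPM in adult cells. At PND8 it fell to 79.7 and 75.2 in Ki67-negative cells (log2 -0.71, SE 0.11, adjusted p = 0.000177) and to 71.3 and 65.2 in Ki67-positive cells (log2 -0.89, SE 0.111, adjusted p = 2.27e-05). In repopulation it was 132 and 121 in Ki67-negative and 126 and 101 in Ki67-positive cells, which overlapped the adult values. Neither repopulation difference passed (log2 0.00 and -0.15, adjusted p = 0.987 and 0.279). Ezh2 was thus above adult in both settings, while Ezh1 was below adult at PND8 alone, a difference tested directly further on. The ratio of Ezh2 to Ezh1 TPM was 0.171 and 0.16 in adult, 1.23 to 2.21 at PND8, and 0.709 to 1.52 in repopulation libraries.

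Suz12, the scaffold, moved less than Ezh2. It held 102 and 99.2 CPM in adult, 167 and 154 in PND8 Ki67-negative, 146 and 152 in PND8 Ki67-positive, 120 and 133 in repopulation Ki67-negative, and 130 and 136 in repopulation Ki67-positive cells. The log2 differences from adult were 0.67 and 0.56 at PND8 (adjusted p = 3.97e-05 and 0.000145) and 0.32 and 0.40 in repopulation (adjusted p = 0.0112 and 0.00254), in the order Ki67-negative then Ki67-positive. The repopulation Ki67-negative call was lost without adult replicate 1 (adjusted p = 0.053), adult replicate 2 (0.0862) or repopulation Ki67-negative replicate 2 (0.102). Eed, another core subunit, held 54.8 and 56.7 CPM in adult cells and 43.3 to 73.6 elsewhere, and passed against adult only in repopulation Ki67-positive cells (log2 0.37).

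**Figure D2:**
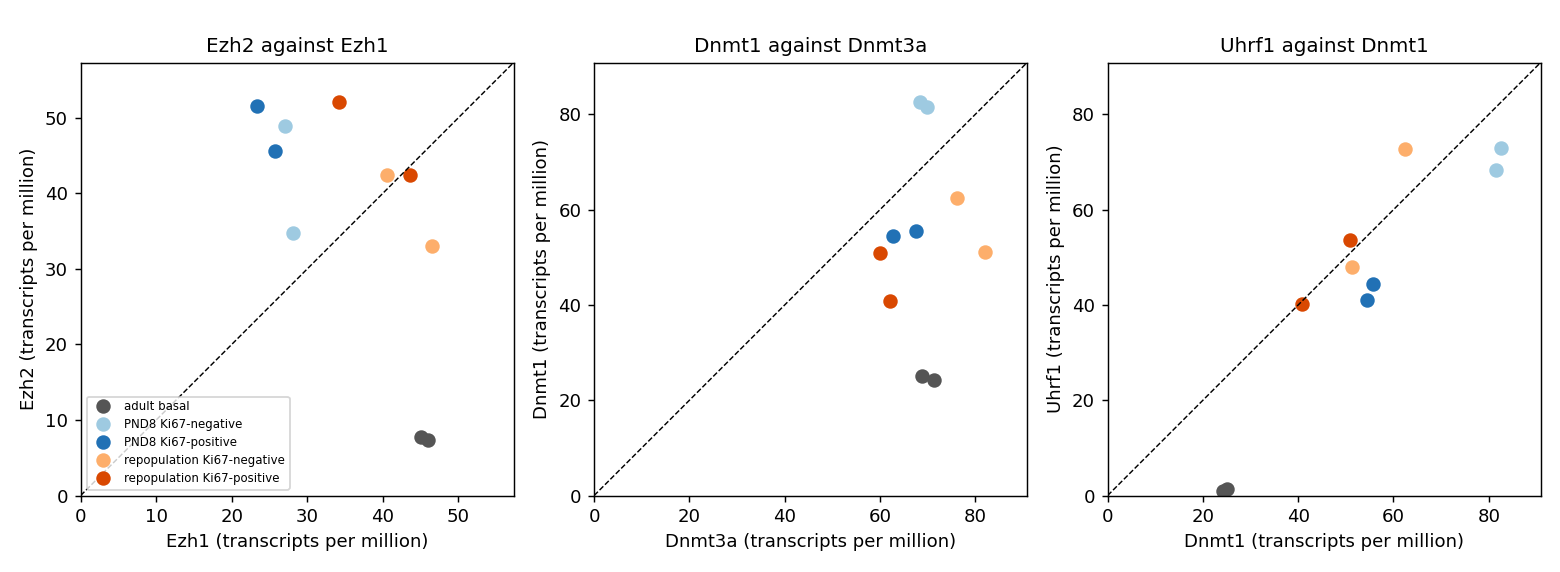
Each panel plots the TPM of 1 gene against another, 1 point per library, coloured by group, with a dashed line of equality. The adult points lie far below the line in all 3 panels; Ezh2 exceeds Ezh1 in all 4 PND8 libraries, and Dnmt1 exceeds Dnmt3a in the PND8 Ki67-negative libraries alone.

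Set against all genes, the number of members that differed from adult was read as follows. In PND8 Ki67-positive cells 6 members were higher and 1 lower, where 25.1% of tested genes were called higher and 24.3% lower. The counts were 5 and 1 in PND8 Ki67-negative cells (all genes 25.4% and 21.4%), 5 and 1 in repopulation Ki67-positive cells (23.9% and 21.0%), and 6 and 1 in repopulation Ki67-negative cells (21.5% and 17.6%). The share of members called higher is above these backgrounds and the share called lower is below them. The members were chosen with earlier results of these data known, so this excess is not independent support. The median log2 difference over the 10 members was 0.67, 0.54, 0.16 and 0.29 in that order, beside 0, 0.03, -0.01 and -0.01 over all tested genes. These 4 comparisons use the same 2 adult libraries, so their results are not independent of one another. Dnmt1, Uhrf1, Hells and Ezh2 passed in all 19 settings tried for each of the 4.

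Several other features separate the adult group, and their part in these differences cannot be told apart from that of age or treatment. The adult mice lack the reporter, and both adult libraries carry a numeric code in the file headers that no other library has. Markers of other cells moved too. Of 9 monocyte and neutrophil genes, 9 and 7 were detected in the adult libraries at summed levels of 228 and 68.8 CPM, led by Ngp, against 3.48 to 9.26 elsewhere. Of 8 markers of border macrophages, all were detected at PND8 at summed levels of 650 to 886 CPM, led by Mrc1, against 79.9 to 181 elsewhere. Erythroid genes summed to 23.3 to 76.9 CPM at PND8 and at most 7.45 elsewhere, while microglial markers summed to 7750 to 10200 in every library. Astrocyte genes, led by Slc1a3 in every library, summed to 240 to 248 CPM in adult and 410 to 567 in repopulation cells. At PND8 they summed to 61.4 to 98.4 in replicate 1 and 376 to 430 in replicate 2. Of 8 lymphocyte genes, only 2 to 4 were detected per library, led by Cd79b in each. They summed to 47.5 to 55.9 CPM at PND8 and 17.3 to 25.2 elsewhere. The part of these cells in the results was not tested. Total counts were 6865903 to 10287876 per library.

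Sorting by the Ki67 reporter asked how cells with and without Ki67 differ within one age or treatment. Mki67 itself was 919 and 1110 CPM in PND8 Ki67-positive and 242 and 282 in PND8 Ki67-negative cells. It was 930 and 1090 in repopulation Ki67-positive and 336 and 463 in repopulation Ki67-negative cells, against 13.4 and 11 in adult cells. The Ki67-negative fractions thus held far more Mki67 RNA than adult cells.

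Hells, Uhrf1 and Dnmt1 were lower, not higher, in PND8 Ki67-positive than in PND8 Ki67-negative cells. Hells fell by 1.39 on the log2 scale (SE 0.244, adjusted p = 0.0037), Uhrf1 by 0.75 (SE 0.177, adjusted p = 0.0234) and Dnmt1 by 0.59 (SE 0.119, adjusted p = 0.00924). For each of the 3 genes both Ki67-positive libraries lay below both Ki67-negative ones. No member was called higher. The 3 of 10 called lower stand beside 3.15% of all tested genes called lower and 2.75% called higher. The calls depend on single libraries and, for Uhrf1, on the method. Without PND8 Ki67-positive replicate 2 none of the 3 passed in edgeR, with 3 members at an unadjusted p under 0.05 (Hells -1.23, adjusted p = 0.0811; Dnmt1 -0.58, 0.0994; Uhrf1 -0.77, 0.153), and without replicate 1 of that group Hells alone passed (Dnmt1 -0.54, adjusted p = 0.0839; Uhrf1 -0.66, 0.154). Uhrf1 also missed without PND8 Ki67-negative replicate 2 (-0.69, adjusted p = 0.0716), and in limma on log2 TPM with all libraries (adjusted p = 0.0722 and 0.107 at pseudocounts of 1 and 0.1). Without PND8 Ki67-negative replicate 1 the 3 passed and Tet2 (0.66, adjusted p = 0.00174) and Tet3 (0.42, adjusted p = 0.013) were called higher as well.

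The other 7 members did not pass at PND8. Ezh2 was 0.20 higher on the log2 scale in Ki67-positive cells, with a 95% interval of -0.16 to 0.56, and Suz12 was 0.11 lower (adjusted p = 0.551). Dnmt3a differed by -0.08 (adjusted p = 0.662) and Ezh1 by -0.18 (adjusted p = 0.406). With the header code as a term Tet3 was called higher (0.24, adjusted p = 0.0424). Ezh2 did not show the lower level in Ki67-positive cells that Hells, Uhrf1 and Dnmt1 showed, though all of them were above adult.

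In repopulation, Hells was again lower in Ki67-positive cells, by 1.13 on the log2 scale (SE 0.257, adjusted p = 0.0313), and Dnmt3a fell by 0.35 (SE 0.0798, adjusted p = 0.0302). Dnmt1 was 0.30 lower (adjusted p = 0.242) and Uhrf1 0.36 lower (adjusted p = 0.352), and neither passed. Their Ki67-negative and Ki67-positive values overlapped between replicates. With the header code as a term in the fit, which compares the fractions within a code, both passed (Dnmt1 -0.30, adjusted p = 0.00636; Uhrf1 -0.35, adjusted p = 0.00874) and Ezh2 was called higher (0.34, adjusted p = 0.025). That term also raised the calls over all tested genes, to 604 higher and 609 lower of 12230. The 2 of 10 called lower stand beside 0.867% of tested genes called lower and 1.87% called higher. Both calls are near the threshold. Hells was at -0.70 (adjusted p = 0.205) without repopulation Ki67-negative replicate 2 and at -0.81 (adjusted p = 0.174) without repopulation Ki67-positive replicate 1. Leaving out adult replicate 1 or 2 gave Hells an adjusted p of 0.0539 or 0.0528. Dnmt3a lost its call in 7 of 19 alternatives, including those without either adult, either repopulation Ki67-positive or either repopulation Ki67-negative library (adjusted p = 0.0679 to 0.242).

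Averaged over both settings, Hells was 2.39-fold lower in Ki67-positive cells (log2 -1.26, SE 0.177, adjusted p = 0.000413). Uhrf1 fell by 0.56 (SE 0.126, adjusted p = 0.0117), Dnmt1 by 0.45 (SE 0.085, adjusted p = 0.00399) and Dnmt3a by 0.22 (SE 0.0563, adjusted p = 0.0253), with 6.51% of tested genes called lower. Hells and Dnmt1 passed in all 20 settings of this average, Uhrf1 in 19 and Dnmt3a in 12. Dnmt3a missed without either adult, PND8 Ki67-positive or repopulation Ki67-positive library and without repopulation Ki67-negative replicate 1 (adjusted p = 0.0536 to 0.128). With the header code as a term Ezh2 (0.28, adjusted p = 0.00454) and Ezh1 (-0.17, adjusted p = 0.032) passed as well. The header codes group 1 Ki67-negative with 1 Ki67-positive library, which gives 4 differences within a code. For Hells these were -1.33, -1.44, -1.09 and -1.14, and for Dnmt1 -0.62, -0.57, -0.30 and -0.30. For Uhrf1 they were -0.77, -0.72, -0.24 and -0.46, with the PND8 codes first in each case. Dnmt3a gave -0.18, 0.03, -0.38 and -0.33, so the PND8 libraries carry little of its difference.

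The Ki67 difference was not shown to vary between PND8 and repopulation for any member. The test of the difference between the 2 differences called 0 of 10 members and 0.0% of all tested genes in edgeR, and 0 members in DESeq2. Without adjustment, a threshold of 0.05 was passed by 1 member, Dnmt3a (log2 -0.28, adjusted p = 0.96), and by 613 genes in all. The interval was wide for Hells, -0.51 to 1.02.

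**Figure D3:**
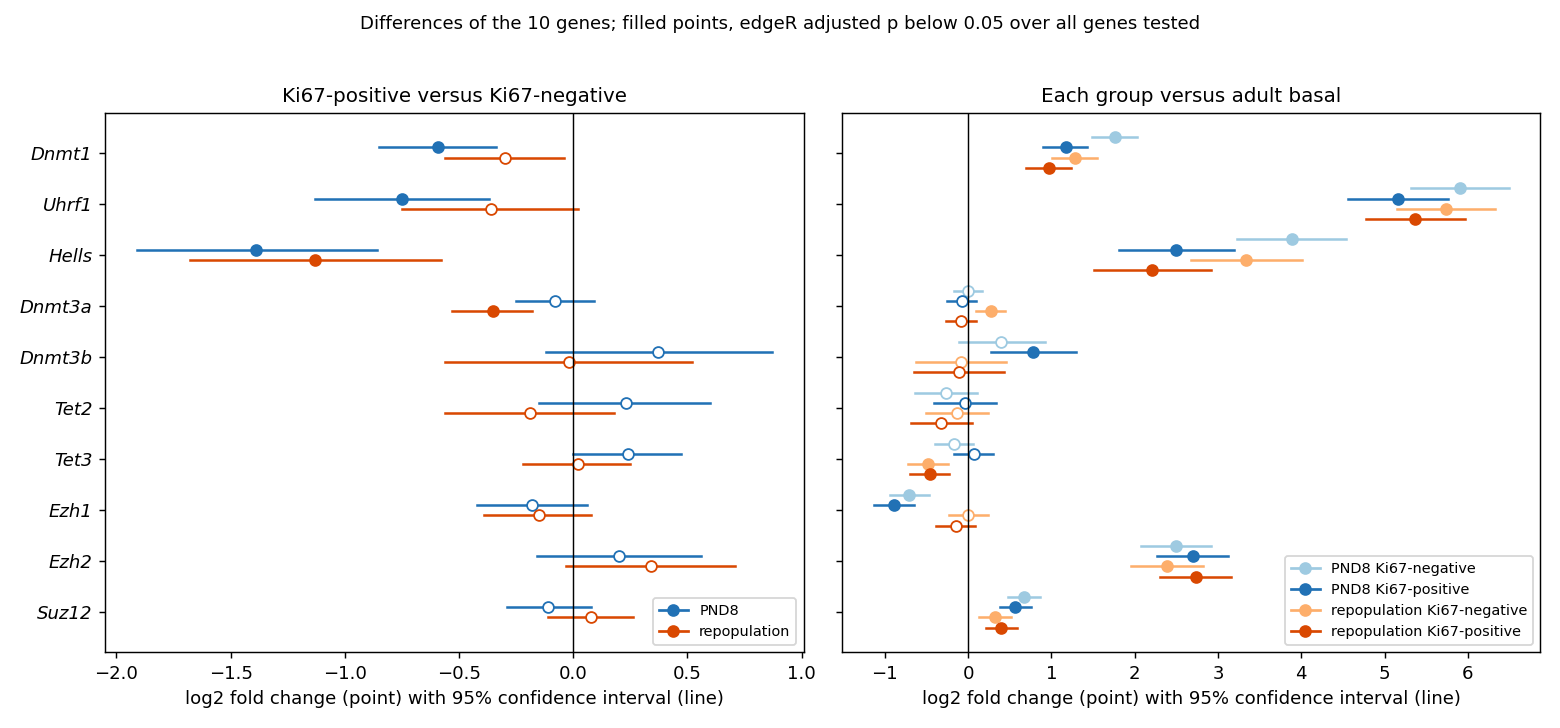
Log2 fold changes of the 10 genes are plotted for both Ki67 comparisons (left) and for the 4 comparisons with adult (right) with 95% confidence intervals from edgeR; filled points passed an adjusted p of 0.05. Uhrf1, Hells, Ezh2 and Dnmt1 lie right of zero in the 4 comparisons with adult, and Hells lies left of zero in both Ki67 comparisons.

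Genes of the cell cycle give a scale for these values. Of 24 genes of the S phase list (DNA replication), 19 were called lower and 0 higher in PND8 Ki67-positive than Ki67-negative cells, with a median log2 difference of -0.85, and in repopulation 5 were lower and 0 higher, with a median of -0.37. Of 22 genes of the G2 and M phase list (mitosis), 22 were higher at PND8 (median 1.93) and 21 in repopulation (median 1.5). Summed S phase CPM were 2270 to 2500 in PND8 Ki67-negative and 1440 to 1500 in PND8 Ki67-positive cells, and 411 to 422 in adult cells. Against adult, 22 to 24 of the 24 S phase genes and all 22 G2 and M genes were higher in each of the 4 groups. Mcm5, a helicase subunit of replication forks, was 183 and 198 CPM in PND8 Ki67-negative and 104 and 111 in PND8 Ki67-positive cells. Ccnb1, the mitotic cyclin, was 12.6 and 18.1 in the first and 81.1 and 89.6 in the second. Hells, Uhrf1 and Dnmt1 thus lay on the side of the replication genes and not on that of the mitotic genes in this sort. Some markers of other cells moved with the sort too. Of 8 endothelial genes, 4 to 6 were detected per library, summing to 84.2 to 86.8 CPM in PND8 Ki67-negative and 51.2 to 51.8 in PND8 Ki67-positive cells, and to 65.2 to 72 and 45.9 to 46.7 in repopulation. Of 8 neuronal genes, 5 to 8 were detected at PND8, summing to 8.04 to 10.1 in Ki67-negative and 3.81 to 4.18 in Ki67-positive cells. The part of cell cycle phase and of these cells in the values was not tested.

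The closest profiles were searched over all tested genes. They use the same 10 libraries, adult ones included, and are not independent of the results above. Likeness was the root mean square difference between centred log2 CPM over the 10 libraries, so smaller is closer. The nearest gene to Dnmt1 was Mcm3 at 0.103, that to Uhrf1 was Mcm10 at 0.115, and that to Hells was Mcm6 at 0.277. All 3 neighbours encode proteins of the replication machinery. Ezh2, which was not lower in Ki67-positive cells, lay closest to Rrm1 at 0.123. Rrm1 encodes a subunit of ribonucleotide reductase and is on the S phase list as well. Ezh1 lay closest to Dapp1 at 0.0463. Suz12 lay nearest Slc25a5 at 0.0654, Dnmt3a nearest Flcn at 0.0667 and Tet3 nearest Tcf12 at 0.0592. Such distances are smaller for genes that vary little, so they do not rank members against one another: the centred profile spanned 6.24 log2 units for Uhrf1, 2.9 for Ezh2 and 0.419 for Dnmt3a.

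Repopulating and PND8 cells were compared directly for each sort fraction. Ezh1 was higher in repopulation by 0.74 in Ki67-positive (SE 0.111, adjusted p = 0.000234) and by 0.71 in Ki67-negative cells (SE 0.11, adjusted p = 0.000264), and passed in all 20 settings of both. In Ki67-positive cells Dnmt3b fell by 0.89 (SE 0.24, adjusted p = 0.0128) and Tet3 by 0.53 (SE 0.109, adjusted p = 0.00259). This made 1 member higher and 2 lower, where 16.7% of tested genes were called higher and 14.2% lower. In Ki67-negative cells Dnmt3a was 0.27 higher (adjusted p = 0.0186), Dnmt1 fell by 0.48 (adjusted p = 0.00683), Suz12 by 0.35 (adjusted p = 0.00679) and Tet3 by 0.31 (adjusted p = 0.0405). With Ezh1 that is 2 higher and 3 lower, beside 18.0% and 18.6% of tested genes. In both fractions the numbers of members called are of the order of these backgrounds, except that 3 of 10 called lower in Ki67-negative cells is somewhat above. Without repopulation Ki67-negative replicate 1 only Ezh1 passed in Ki67-negative cells (Dnmt1 -0.31, adjusted p = 0.101; Suz12 -0.27, 0.0846; Dnmt3a 0.25, 0.0829). Tet3 in Ki67-negative cells passed in 9 of 20 settings, and without PND8 Ki67-negative replicate 1 it was at -0.12 (adjusted p = 0.3). Dnmt3b in Ki67-positive cells missed without PND8 Ki67-positive replicate 1 (adjusted p = 0.0542), repopulation Ki67-positive replicate 1 (0.0745) or replicate 2 (0.0501).

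Age, treatment and part of the header codes differ between the 2 settings. PND8 replicate 2 and repopulation replicate 1 share a code. Between those libraries Ezh1 was higher in repopulation by 0.95 in Ki67-positive and 0.81 in Ki67-negative cells. Dnmt1 was lower there too, with values of -0.39 and -0.66 in the same order. Tet3 was at -0.41 and -0.08, Suz12 at -0.23 and -0.37, and Dnmt3a at -0.07 and 0.33. With the code as a term in the fit, 6 members passed in Ki67-positive and 9 in Ki67-negative cells. Ezh2, at 0.03 in the Ki67-positive comparison as reported, was called lower at -0.32 (adjusted p = 0.0295). Calls over all 12230 tested genes rose too. In Ki67-positive cells 2308 were higher and 2094 lower with that term, against 2040 and 1738 as reported. In Ki67-negative cells they were 2601 and 2745, against 2203 and 2270. Only the shared code links the 2 settings in that fit.

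Other genes of these pathways were counted over whole lists, and only some of those with the largest called changes are named, with core partners. The lists were also chosen with earlier results of these data known, so their counts are descriptions and not independent support. In the list of other DNA methylation genes (16 of 19 tested), 5 were higher and 5 lower in PND8 Ki67-positive than adult cells, 5 and 6 in PND8 Ki67-negative, and 4 and 5 in each repopulation fraction. Over all tested genes 21.5% to 25.4% were higher and 17.6% to 24.3% lower in these comparisons, so the shares of this list are near or somewhat above the background. Cdca7l, a relative of CDCA7, which recruits HELLS, was 0.925 and 1.95 CPM in adult cells and 10.8 to 31.3 elsewhere. Against adult, its log2 difference was 3.39 in PND8 Ki67-positive, 4.4 in PND8 Ki67-negative, 3.16 in repopulation Ki67-positive and 3.49 in repopulation Ki67-negative cells. Like Hells it fell in PND8 Ki67-positive against Ki67-negative cells, by 1.01 (adjusted p = 0.0288). Zbtb33 (Kaiso), a reader of methylated DNA, was higher in that comparison by 0.49 (adjusted p = 0.0454), and was below adult levels in every other library, at 30.1 to 45.6 CPM against 59.5 and 70.7.

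Among 11 other genes of polycomb repressive complex 2, 7 were higher and 2 lower in both PND8 fractions against adult, 4 and 2 in repopulation Ki67-positive, and 3 and 2 in repopulation Ki67-negative cells. Beside the same backgrounds, the count of 7 higher at PND8 is well above, and the counts of lower genes are near. The limit from the choice of lists applies here too. Phf19, an accessory subunit that helps the complex bind chromatin, was 0.925 and 0.244 CPM in adult and 20.6 to 49.9 elsewhere. Its log2 difference from adult ran from 5.23 to 6.13 over the 4 groups (adjusted p = 2.49e-08 to 2.06e-07). Unlike Hells, its Ki67-positive libraries were higher in the average over both settings (0.71, adjusted p = 0.00802). Rbbp7, a histone-binding subunit, was 60.3 and 65.8 CPM in adult and 82.4 to 127 elsewhere. Its paralog Rbbp4 was 167 and 175 CPM in adult and 216 to 246 at PND8, but 161 to 191 in repopulation, which overlapped adult. Lcorl was higher in Ki67-positive cells both at PND8 (0.42, adjusted p = 0.0294) and in repopulation (0.54, adjusted p = 0.0127).

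Polycomb repressive complex 1 reads the lysine 27 mark through its CBX subunits and ubiquitinates histone H2A. Of 23 genes tested, 10 were lower than adult in each of the 4 groups, where 24.3%, 21.4%, 21.0% and 17.6% of all tested genes were lower in PND8 Ki67-positive, PND8 Ki67-negative, repopulation Ki67-positive and repopulation Ki67-negative cells. In the same order 2, 6, 2 and 3 of the 23 were higher, beside 25.1%, 25.4%, 23.9% and 21.5% of all tested genes. The share called lower is above the background in each comparison, with the same limit from the choice of lists. Cbx7, a CBX subunit common in resting cells, was 91.2 and 93.3 CPM in adult and 29 to 47.4 elsewhere, with log2 differences of -1.48 and -1.27 in the Ki67-positive cells of PND8 and repopulation, and -1.31 and -1.07 in the Ki67-negative cells. Bmi1 (Pcgf4) was 78.3 and 84.3 in adult and 37.8 to 44.2 elsewhere. Cbx2 was 12.7 and 15.4 CPM in PND8 Ki67-negative and 4.73 and 6.24 in PND8 Ki67-positive cells (log2 -1.36, adjusted p = 0.00311), near its adult 5.32 and 5.01. Of 5 tested genes of lysine 27 demethylation and mark removal, at most 1 was called higher and at most 2 lower in any comparison with adult. Beside the shares of all tested genes just given, 5 genes are too few to set apart from the background.

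At the start sites, peaks called by the authors in each library were counted within 1000 bp of the start used in the count table. H3K4me3 peaks covered all 10 genes in both adult libraries, where 59.1% of all genes and 89.8% of tested genes had such a peak. ATAC peaks lay at all 10 in each of the 3 libraries, beside 56.0% of all genes and 88.3% of tested genes in adult, 58.4% and 89.2% at PND8, and 60.8% and 90.8% in repopulation. Such a peak is therefore common among expressed genes. Uhrf1 and Hells, at low RNA in adult cells, had H3K4me3 and ATAC peaks there.

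H3K27ac peaks were present at all 10 starts in both libraries of PND8 Ki67-negative (48.1% of all genes, 80.5% of tested genes), PND8 Ki67-positive (49.2% and 82.3%) and repopulation Ki67-positive cells (47.2% and 79.0%). In adult cells 7 of 10 had one in both libraries, beside 40.8% of all genes and 68.7% of tested genes. The 3 without were Uhrf1, Hells and Dnmt3b. Uhrf1 and Hells had no peak in either adult library, and Dnmt3b had one in replicate 2 at the 3.4 percentile of signal in its list. The adult lists held 19572 and 24903 peaks, against 26962 to 30321 in the PND8 and repopulation lists. Uhrf1 peaks, 2168 to 2728 bp wide and spanning both starts shown above, lay at the 57.6 and 61.6 percentiles in PND8 Ki67-negative, 86.3 and 85.6 in PND8 Ki67-positive, and 84.3 and 82.6 in repopulation Ki67-positive lists. Hells peaks lay at the 38.7 and 32.9, 40.0 and 50.5, and 50.2 and 46.6 percentiles of the same lists. A percentile places a peak within its own list only and does not measure a change between lists.

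The cuprizone libraries, for which no RNA was measured here, gave 7 of 10 genes in each fraction (43.8% of all genes and 73.4% of tested genes in Ki67-negative cells, 45.8% and 76.8% in Ki67-positive cells). The Ki67-negative pair lacked a peak in at least 1 library at Uhrf1, Hells and Dnmt3b, the same genes as in adult cells. The Ki67-positive pair had Uhrf1 at the 70.1 and 75.4 percentiles and lacked Hells, Dnmt3b and Ezh1 in replicate 1. Tet2 had strong H3K27ac in every list, from the 89.9 to the 94.9 percentile. Ezh2, at low RNA in adult cells, still held peaks at the 72.9 and 69.5 percentiles there. Dnmt1 lay at 22.1 and 33.5 in adult and at 61.6 to 73.5 in the PND8 and repopulation lists, and Suz12 at 38.0 and 43.2 in adult and 71.1 to 80.9 in those lists. In the cuprizone lists Dnmt1 lay at 35.5 to 55.2 and Suz12 at 50.0 to 78.9. Ezh1 ranked low in every H3K27ac list that held it. It lay at 15.0 and 19.4 in adult, 35.0 to 41.9 at PND8, 37.1 and 32.0 in repopulation, and 11.2 to 39.6 in cuprizone lists. Its RNA was highest in adult and repopulation cells.

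Rpb2 peaks lay at all 10 starts in the single PND8 Ki67-positive library (48.4% of all genes, 80.4% of tested genes) and at 4 in both adult libraries, Tet2, Tet3, Ezh2 and Suz12 (28.1% of all genes, 47.5% of tested genes). The adult count depends on the library. It is 7 in replicate 2 alone, which adds Hells, Dnmt3a and Dnmt3b, and 5 in replicate 1 alone, which adds Ezh1. Neither adult library had an Rpb2 peak at Uhrf1 or Dnmt1. The adult Rpb2 lists were smaller, at 14550 and 10544 peaks with 6.78% and 3.19% of tags in peaks. The PND8 list held 31602 peaks with 8.57%. The part of list size in absent peaks was not tested.

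**Figure D4:**
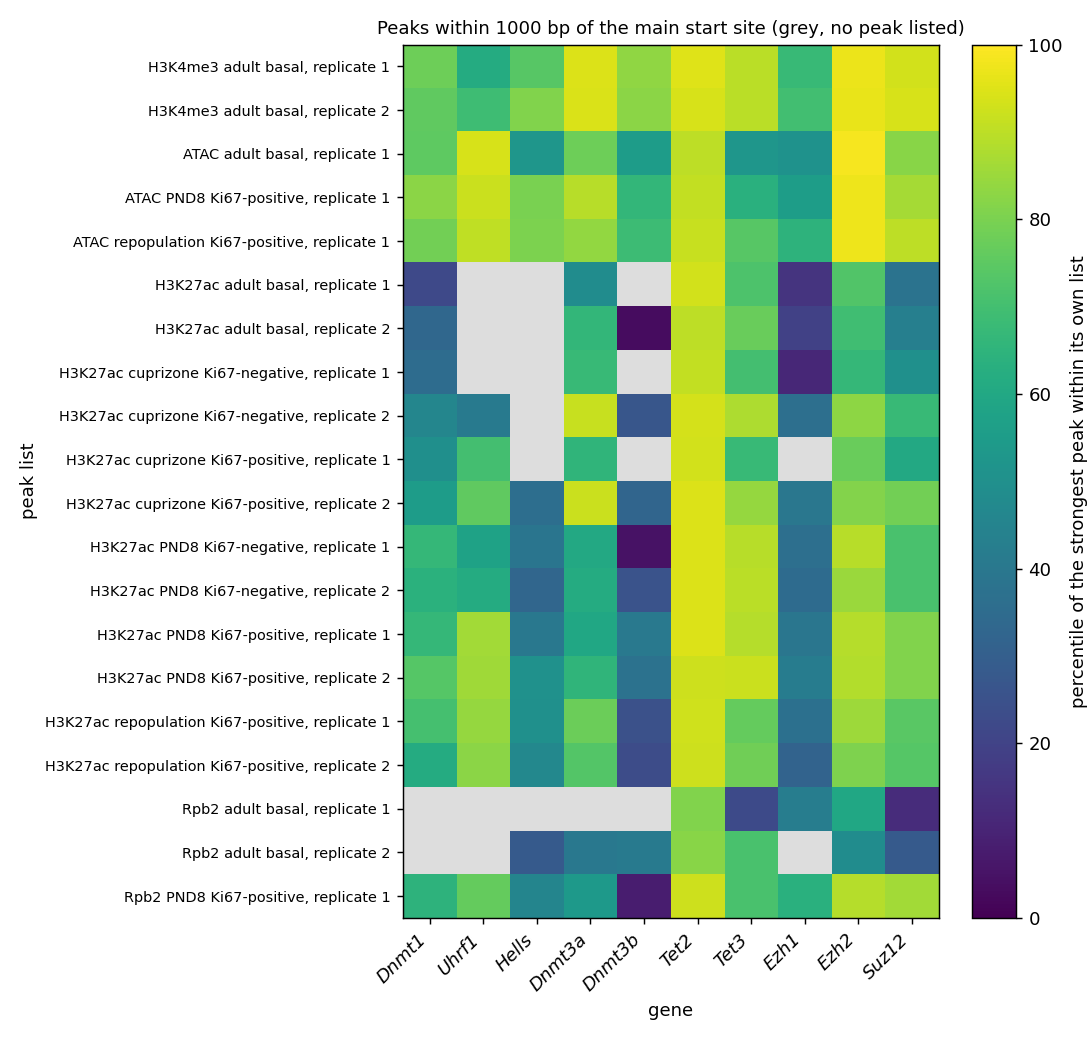
Rows are single peak lists, columns are the 10 genes, and colour gives the percentile of the strongest peak within 1000 bp of the start in its own list, with grey where no peak is listed. Grey cells fall at Uhrf1, Hells and Dnmt3b in adult and some cuprizone H3K27ac lists, at Ezh1 in 1 cuprizone list, at 5 genes in adult Rpb2 replicate 1, and at Dnmt1, Uhrf1 and Ezh1 in adult Rpb2 replicate 2, while Tet2, Tet3, Ezh2 and Suz12 are coloured in every row.

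Dnmt3a has an internal start 84764 bp downstream of the first, where the transcript of a shorter protein form begins, and the 2 starts carried marks in opposite order. The upstream start (chromosome 12, 3806980, mm10) lay at the 94.9 and 94.2 percentiles of the adult H3K4me3 lists and at 48.5 to 92.0 of the H3K27ac lists. The internal start (3891744) lay at 37.1 and 39.1 for H3K4me3 and at 81.9 to 98.2 for H3K27ac. In all 12 H3K27ac lists the internal start ranked above the upstream one. Both were open, at 78.0 and 80.4 in adult ATAC. The count table sums a gene over 1 transcript model and does not separate the forms. Tet3 has a second start 14714 bp from its first, at 85.6 to 94.9 in ATAC and 42.3 and 40.4 in H3K4me3.

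**Figure D5:**
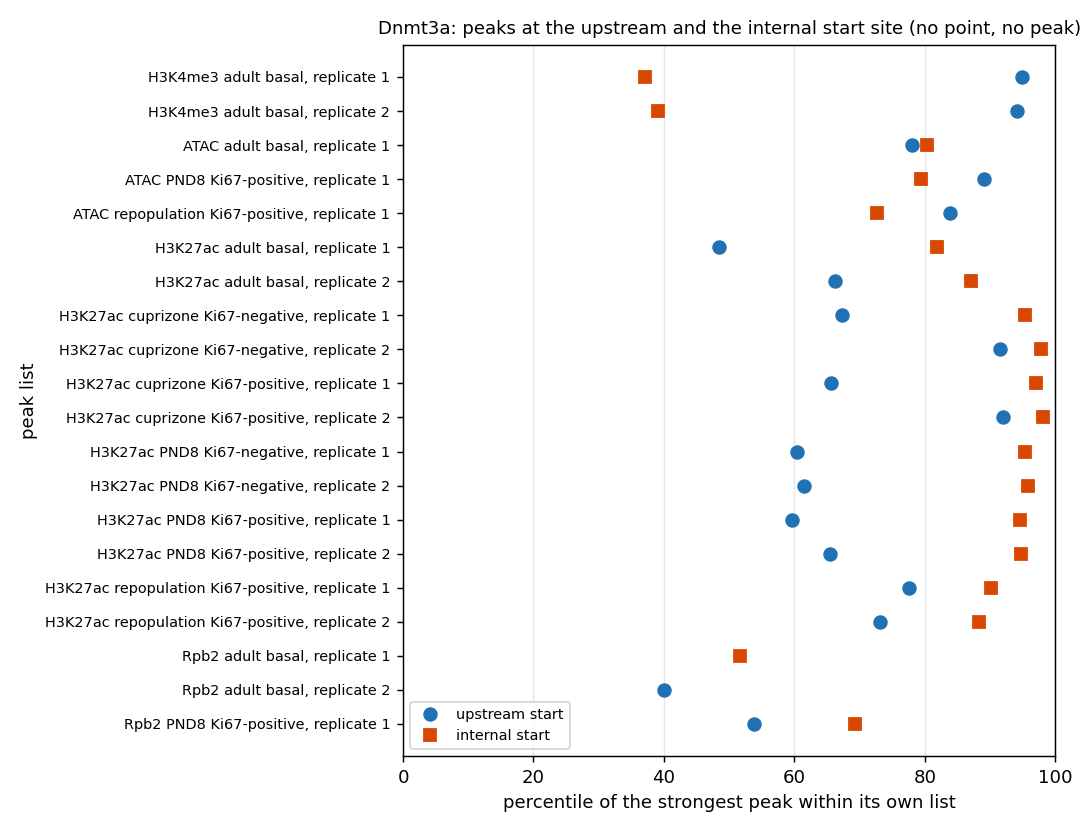
Points give, for each peak list, the percentile of the strongest peak at the upstream start (circles) and at the internal start (squares) of Dnmt3a within that list. Squares lie right of circles in all 12 H3K27ac lists and left of them in both H3K4me3 lists.

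The E2F words printed above were also counted over all tested genes with a window, as a description without a test. The shorter set was chosen after matches in the members were seen, and the members are among the genes counted. The shorter words lay in 24.6% of genes called higher in PND8 Ki67-negative cells than adult (609 of 2472), 16.0% of those called lower and 18.5% of the rest. For repopulation Ki67-negative cells the shares were 21.6%, 17.2% and 19.4%. Between the PND8 fractions they were 32.2% of the genes lower in Ki67-positive cells (93 of 289), 19.2% of those higher and 19.1% of the rest. Dnmt1, Uhrf1 and Hells belong to the first of these. Windows of the members also differed in CpG number, from 57 in Tet2 and 46 in Dnmt3a to 12 in Uhrf1 and Dnmt1 at the starts of the count table, beside a median of 7 over all windows. The Dnmt1 window that holds the printed word had 33, and another Dnmt1 window, further upstream, had 2.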

How the data were processed

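RNA counts were made by the authors with HOMER over exons of 1 mm10 transcript per gene, unadjusted and with at most 3 tags per position, per the file headers; the deposited TPM table was likewise written by HOMER, with another transcript than the count table for Uhrf1, Dnmt3a, Dnmt3b, Tet3 and Suz12. Peaks were called per library with HOMER, per the file headers, and their signal is tags normalised to 10000000. The ATAC headers name no build and their positions were read as mm10; the PND8 Rpb2 library was called against an H3K27ac input. STAR 2.7.0f, Bowtie2 2.3.4.1, HOMER 4.11 and DESeq2 are named in the submitters' processing notes. Of 46 samples, 16 were inputs and were not used as measurements.

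Counts were tested with edgeR 4.0.16 in R 4.3.3 (TMM, filterByExpr, quasi-likelihood test, all 10 libraries in 1 fit, adjusted p under 0.05), and fold changes are fitted values. Promoter sequences are from RefSeq (GRCm38.p6), and 9 of the 10 count-table starts matched a window. Members and lists were chosen with earlier results of these data known. The text names the 10 members, and from the other lists only some of the genes with the largest called changes, plus core partners of the members. Bcorl1, Pcgf6, Pcgf2 and Kdm6a were also among the largest called changes and are not described. The test was checked on simulated data: of 200 genes changed in the PND8 Ki67 comparison (12003 genes), 157 were called, all in the right direction, with 9 false calls. Recovery was 51% for 1.5-fold, 83.7% for 2-fold and 100% for 4-fold rises. The simulated replicates carried neither the header codes nor the unequal noise of the groups. Alternatives were other normalisations, no filter, DESeq2 1.42.0, limma 3.58.1 on log2 TPM, the groups of the comparison alone, blocks, and each library left out. With 2 libraries a group, the p-values rest on a spread pooled over the 5 groups and shared across genes, not on the compared libraries alone. Replicates differed beyond sampling noise, most of all in PND8 Ki67-negative cells. The chi-square between replicates per degree of freedom was 11.5 there, 2.55 in adult cells and 4.14 to 5.29 in the other groups. The pooled spread does not carry this difference between groups.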

Additional observations from a re-analysis of the deposited data

Results flagged for a closer look

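In 8 cases the difference of a gene from adult microglia was not the same at PND8 and in repopulation, by the test of the difference itself in edgeR; each value is the log2 level in repopulation minus that at PND8. In Ki67-negative cells they were Dnmt1 (-0.48), Dnmt3a (0.27), Tet3 (-0.31), Ezh1 (0.71) and Suz12 (-0.35). In Ki67-positive cells they were Dnmt3b (-0.89), Tet3 (-0.53) and Ezh1 (0.74). Over all tested genes 18.0% were higher and 18.6% lower in repopulation in Ki67-negative cells, and 16.7% and 14.2% in Ki67-positive cells. Calls of this kind are thus common among all genes. Ezh1 was the only member that passed in all 20 settings in both fractions.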

How the results depend on the processing

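Of 1860 values of single members recomputed under alternatives, 1748 kept direction and side of the threshold, 64 lost a call, 47 gained one and 1 reversed: Ezh2, repopulation against PND8 Ki67-positive, at -0.32 with the header code as a term. The cause was not tested. Of the counts of called members, the Ki67 count at PND8 (3) ran from 0 to 5 with libraries left out, and limma on log2 TPM lost Uhrf1. In repopulation (2) it was 4 with no filter, 1 with limma on log2 TPM at pseudocounts of 1 and 0.1, 0 in edgeR on these groups alone (2 at an unadjusted p under 0.05), 5 with the header code as a term (adding Dnmt1, Uhrf1 and Ezh2), and 0 to 2 with libraries left out. The interaction (0) ran from 0 to 1, the 1 being Tet2 (-0.85) without PND8 Ki67-negative replicate 1. Repopulation against PND8 gave 6 (Ki67-positive, 3 as reported) and 9 (Ki67-negative, 5 as reported) with the header code, and for Ki67-negative cells 2 on these groups alone and 1 to 6 with libraries left out. A replicate block left 3 and 2 members called in the Ki67 comparisons; same-numbered libraries of an age or treatment also share a header code, and their deviations correlate at 0.34 and 0.26, on only 2 pairs each. The header code could not be fitted for the comparisons with adult. With that code as a term, calls over all 12230 tested genes rose in the Ki67 comparisons and between settings. In the repopulation Ki67 comparison 604 were higher and 609 lower, against 229 and 106 as reported. At PND8 they were 780 and 1082, against 336 and 385. With no filter, 387 were higher and 349 lower of 17073 genes in repopulation. The number of genes called also changed when a library was left out. Requiring 200 bp of overlap gave 0 members in each ATAC list and in PND8 Rpb2, where peaks are mostly narrower than that (medians 112 to 118 and 190 bp); adult Rpb2 (4) gave 2 above the lower quartile and 5 to 7 with a library left out. With 2 libraries a group, differences below those called were often not detectable.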
